A study of Mus musculus with 8 samples.

Results

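Chemokine ligands are small secreted proteins that attract leukocytes, and 10 of their genes were followed here: Ccl1, Ccl3, Ccl4, Ccl5, Ccl20, Cxcl2, Cxcl3, Cxcl9, Cxcl10 and Xcl1. They were taken by symbol from the 52636 genes of the count table, through GENCODE mouse release M21, and each symbol matched 1 identifier. Only 5 of the 10 (Ccl3, Ccl4, Ccl5, Cxcl2 and Cxcl10) passed the filter on low counts, which 17261 genes passed. The cells were immune cells of spleen and lymph node from mice aged 35 to 55 days, before signs of disease. They were cultured for 4 days with anti-CD3, which triggers the T cell receptor, at 1 μg/ml, and with IL-23 at 20 ng/ml, TGF-β at 4 ng/ml, IL-6 at 20 ng/ml and IL-12 at 3 ng/ml, a TH1/TH17 stimulation that all groups shared. The 4 groups are females and males labelled TCR1640, mice whose T cells carry a transgenic receptor that recognises myelin, and females and males labelled SJL/J, the wild-type strain. Each group has 2 columns of raw read counts, and the cells were not sorted, so they can hold any cell type that survives the culture.

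Chemokines are grouped by the spacing of their first cysteines into CC, CXC, C and CX3C ligands, and they act through G protein-coupled receptors on the cells they attract. Activated T cells secrete CCL3, CCL4 and CCL5, which attract effector T cells and macrophages. CXCL2 and CXCL3 attract neutrophils through CXCR2, while interferon gamma induces CXCL9 and CXCL10, the ligands of CXCR3. In autoimmune inflammation of the central nervous system these signals help to bring leukocytes into the tissue.

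Column totals ran from 3765291 to 5116467 counts. Columns within a group were almost as alike as sampling noise allows (chi-square per degree of freedom of 1.05 to 1.08, against 3.12 to 17.1 between groups), so they were summed and counted as 1 sample, n = 1 per group. Ratios of 2 groups therefore carry exact 95% intervals that cover counting error only, and no p-value. Eif2s3y, on the Y chromosome, had 87 to 124 counts in male columns and 0 in female columns, as the sex labels say. The T cell receptor segments went against the strain labels: Traj43 made up 75.6% (female) and 79.2% (male) of alpha joining segment counts under the SJL/J label, against 5.04% and 2.91% under the TCR1640 label. A strain name below is only the label of a library, and each strain direction is one between labels that these segments go against. Defining T cell genes were present in every group, with 952 to 2177 summed counts of Cd3e.

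The strand of the counting also bears on these genes. Among 902 pairs of a coding gene and a noncoding gene overlapping it on the other strand, the noncoding member was ahead in 77.6% (74.7 to 80.3, exact 95% interval). The strand setting is not given in the sources used here, so part of the sense reads may be missing from the counts. Of the 10 ligand genes, 8 share no exon sequence with an annotated gene on the other strand. Cxcl10 overlaps Art3 and Xcl1 overlaps Gm20743, and these are uncertain. Csf2, which encodes the T cell cytokine GM-CSF and overlaps Gm12223 on the other strand, had at most 1 count in any column. Levels may be far below the true ones, so ratios are mainly described. Levels and shares below compare genes only on the assumption that reads are lost alike for each.

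The promoters of Cxcl2 and Cxcl3 are shown because both genes had counts mainly in libraries labelled SJL/J, that of Cxcl10 because it is the best counted interferon-induced member, and that of Ccl3 for comparison. They come from RefSeq on GRCm38.p6 and end at the base before the transcription start, the more upstream of the RefSeq and GENCODE starts. Cxcl2 lies at chr5:90903649-90903870 and Cxcl3 at chr5:90785851-90786100, both on the plus strand. Cxcl10 lies at chr5:92348890-92349139 and Ccl3 at chr11:83649379-83649628, both on the minus strand. Capitals mark matches to the kappa B motif of NF-kappa B, to the interferon-stimulated response element (TTTC, any 2 bases, then TTTC) and to TGANTCA (an AP-1 site), searched on both strands. TTCNNNGAA, the gamma-activated site, was also searched.
Cxcl2: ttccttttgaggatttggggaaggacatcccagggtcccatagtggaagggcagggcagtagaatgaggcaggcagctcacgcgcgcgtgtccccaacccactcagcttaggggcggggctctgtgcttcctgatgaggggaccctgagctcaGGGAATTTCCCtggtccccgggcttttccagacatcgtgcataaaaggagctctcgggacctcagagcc
Cxcl3: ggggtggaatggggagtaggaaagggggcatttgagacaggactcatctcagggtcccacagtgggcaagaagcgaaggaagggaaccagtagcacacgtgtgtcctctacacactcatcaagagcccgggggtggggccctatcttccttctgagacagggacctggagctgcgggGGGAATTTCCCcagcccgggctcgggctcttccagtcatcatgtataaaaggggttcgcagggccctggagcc
Cxcl10: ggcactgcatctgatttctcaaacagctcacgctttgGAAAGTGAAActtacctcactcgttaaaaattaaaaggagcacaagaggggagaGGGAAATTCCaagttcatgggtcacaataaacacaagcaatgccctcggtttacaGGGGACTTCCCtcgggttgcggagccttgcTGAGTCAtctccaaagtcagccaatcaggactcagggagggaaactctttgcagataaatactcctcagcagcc
Ccl3: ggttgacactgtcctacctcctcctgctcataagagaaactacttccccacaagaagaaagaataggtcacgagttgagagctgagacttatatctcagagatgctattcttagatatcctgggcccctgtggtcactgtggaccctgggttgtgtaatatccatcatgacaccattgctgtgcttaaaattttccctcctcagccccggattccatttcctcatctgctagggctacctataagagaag
Cxcl2 and Cxcl3 each hold the same run of capitals, 2 kappa B matches that overlap, whose end lies 59 and 63 bases before the start. Cxcl10 holds 3 kappa B matches, of which 2 overlap, a TGANTCA match 68 bases before the start and a response element match on the other strand 204 bases before it. Ccl3 holds none of these letters in its window. Over whole windows of 300 bases, found in the table for 8 of the 10 genes, kappa B letters were in 5 (Ccl1, Ccl20, Cxcl2, Cxcl3 and Cxcl10), against 8.46% of all 32851 windows. The response element was in Cxcl10 alone among these 8, against 3.44% of all windows. TGANTCA was in Cxcl9 and Cxcl10, against 7.81%, and TTCNNNGAA in 0 of the 8, against 8.30%. A match is a description of letters and does not show that a factor binds.

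Ccl3, Ccl4 and Ccl5, the CC ligands of activated T cells, held most of the counts. The 3 lie within chromosome 11 (GRCm38), Ccl5 (ENSMUSG00000035042) at 83525778 to 83530518, Ccl3 (ENSMUSG00000000982) at 83647844 to 83649355 and Ccl4 (ENSMUSG00000018930) at 83662584 to 83664683. Each had a pattern of its own over the 4 groups. Ccl3 was high in the male labelled SJL/J alone, Ccl4 was higher in males under both labels, and Ccl5 was high in the male labelled TCR1640 alone.

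Ccl3, also called MIP-1α and a ligand of CCR1, had 30 and 31 counts in females labelled TCR1640, 33 and 40 in males labelled TCR1640, 42 and 52 in females labelled SJL/J and 75 and 95 in males labelled SJL/J. The columns of the male labelled SJL/J lay above all others, those of the female labelled SJL/J came next, and the 2 groups labelled TCR1640 overlapped once scaled to depth. In males the library labelled TCR1640 was 2.95-fold lower than the one labelled SJL/J (log2 ratio -1.56, counting interval -1.98 to -1.16). In females the log2 ratio was -0.52 (-1.01 to -0.04), smaller but with an interval that excludes equality. The male-to-female log2 ratio was 0.94 (0.57 to 1.32) under the SJL/J label and -0.10 (-0.61 to 0.42) under the TCR1640 label.

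Ccl4, or MIP-1β, a chemoattractant of T cells and macrophages, had 40 and 58 counts in females labelled TCR1640, 110 and 92 in males labelled TCR1640, 49 and 51 in females labelled SJL/J and 90 and 86 in males labelled SJL/J. All male columns were above all female columns, while within each sex the columns of the 2 labels overlapped once scaled to depth. The male-to-female log2 ratio was 0.69 (0.33 to 1.05) under the TCR1640 label and 0.90 (0.54 to 1.27) under the SJL/J label. From single columns the ratio under the TCR1640 label was 1.13 from the number 1 columns and 0.30 from the number 2 columns, so its size rests on which columns are used. Between labels Ccl4 stood at 0.07 (-0.34 to 0.49) in females and -0.14 (-0.44 to 0.16) in males, both with intervals that include equality.

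Ccl5, or RANTES, a ligand of CCR1 and CCR3 and a product of memory and cytotoxic T cells, had 42 and 32 counts in females labelled TCR1640, 91 and 87 in males labelled TCR1640, 34 and 39 in females labelled SJL/J and 28 and 30 in males labelled SJL/J. The male labelled TCR1640 was the high group, and the other 3 groups lay close together. In males the library labelled TCR1640 was 2.42-fold higher (log2 ratio 1.28, 0.84 to 1.73), and in females the log2 ratio was 0.12 (-0.36 to 0.61). The male-to-female log2 ratio was 0.91 (0.51 to 1.32) under the TCR1640 label and -0.25 (-0.77 to 0.27) under the SJL/J label.

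**Figure D1:**
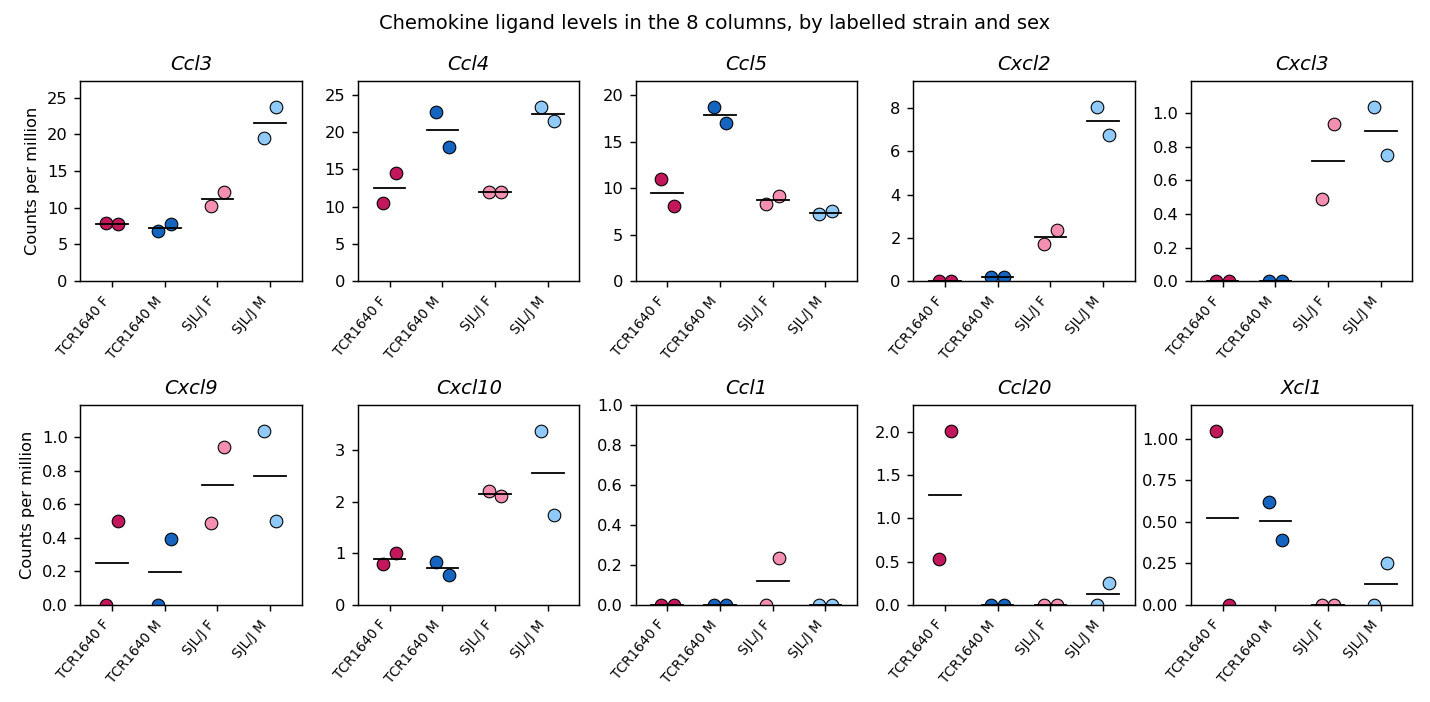
CPM (counts scaled to library size) of the 10 ligand genes (vertical axes, from 0, each with its own scale) in the 8 columns, by labelled strain and sex (F female, M male). Points are columns, number 1 on the left, and lines are the means of the 2 columns of a group. Ccl3 and Cxcl2 are highest in males labelled SJL/J, Ccl5 in males labelled TCR1640, and Ccl4 in males under both labels.

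Per kilobase of exon, Ccl4 had the highest level of the 10 genes in every group, from 18.1 CPM per kb in females labelled SJL/J to 33.9 in males labelled SJL/J. Ccl3 came second in libraries labelled SJL/J (14.7 in females and 28.2 in males), followed by Ccl5 (9.10 and 7.67). In the male labelled TCR1640, Ccl5 came second at 18.6, ahead of Ccl3 at 9.56. In the female labelled TCR1640, Ccl3 at 10.2 and Ccl5 at 9.90 were close, and the within-library ratio of their counts, 1.21 for Ccl5 over Ccl3, had a counting interval of 0.853 to 1.73. These levels assume that reads are lost to the other strand alike for each gene, which was not tested.

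Ratios of 2 genes within a library do not depend on the scaling between libraries. Ccl4 had 2.77 counts per count of Ccl3 in the male labelled TCR1640 (exact 95% interval 2.11 to 3.67) and 1.61 in the female (1.16 to 2.25). It had 1.04 in the male labelled SJL/J (0.834 to 1.29) and 1.06 in the female (0.795 to 1.43). Ccl4 thus exceeded Ccl3 in counts under the TCR1640 label, and the counts of both were alike within error under the SJL/J label. Between males labelled TCR1640 and SJL/J the log2 ratio of Ccl4 over Ccl3 differed by 1.42 (0.93 to 1.91), and between females by 0.59 (-0.02 to 1.21). Ccl5 per count of Ccl3 was 2.44 in the male labelled TCR1640 (1.85 to 3.25) and 0.341 in the male labelled SJL/J (0.249 to 0.462), a log2 difference of 2.84 (2.25 to 3.42). In the female labelled SJL/J it was 0.777 (0.564 to 1.07).

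The sex differences of Ccl3 and Ccl5 were set against each other across labels. The male-to-female log2 ratio under the TCR1640 label minus that under the SJL/J label was -1.04 for Ccl3 (counting interval -1.65 to -0.43) and 1.16 for Ccl5 (0.52 to 1.79). For Ccl4 it was -0.21 (-0.71 to 0.28) and for Cxcl10 -0.59 (-2.36 to 1.17), both including 0. Of 16698 genes with at least 5 counts in each group, 4.31% differed by at least 2-fold with an interval that excludes 0 (2.46% negative, 1.85% positive), and of the 4 ligand genes that could be compared, Ccl3 and Ccl5 did. Ccl3 lies near that limit, at -0.98 when scaled on genes without overlap and at -0.95 from the number 2 columns, and Ccl5 stood at 0.98 from the number 1 columns. With n = 1 per group no test over mice was possible.

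Cxcl2 and Cxcl3, CXC ligands that attract neutrophils through CXCR2, were nearly confined in these libraries to those labelled SJL/J. Cxcl2 (ENSMUSG00000058427, chromosome 5, 90903871 to 90905938) had 0 and 0 counts in females labelled TCR1640, 1 and 1 in males labelled TCR1640, 7 and 10 in females labelled SJL/J and 31 and 27 in males labelled SJL/J. The columns of the 2 labels did not overlap, and within the SJL/J label males lay above females. In males the library labelled TCR1640 was 36.7-fold lower, from 2 against 58 counts (log2 ratio -5.20, -8.28 to -3.28). In females it was 5.28-fold lower with its 0 counts set at a floor of 3 counts for the group, or -2.40 on the log2 scale. That floor value became -1.14 and -1.66 from single columns. The exact interval in females ended at a ratio of 0.260. The male-to-female ratio under the SJL/J label was 3.62 (log2 1.86, 1.06 to 2.73).

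Cxcl3 (ENSMUSG00000029379, chromosome 5, 90786103 to 90789600) had 0 counts in all 4 columns labelled TCR1640, 2 and 4 in females labelled SJL/J and 4 and 3 in males labelled SJL/J. It did not pass the filter on low counts. At the same floor it was 1.86-fold lower under the TCR1640 label in females and 2.95-fold lower in males. The exact intervals ended at ratios of 0.912 and 0.548. From the number 1 columns alone the floor value in males was -0.75 on the log2 scale, against -1.56. The 7 male and 6 female summed counts under the SJL/J label gave a ratio with an interval that includes equality.

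**Figure D2:**
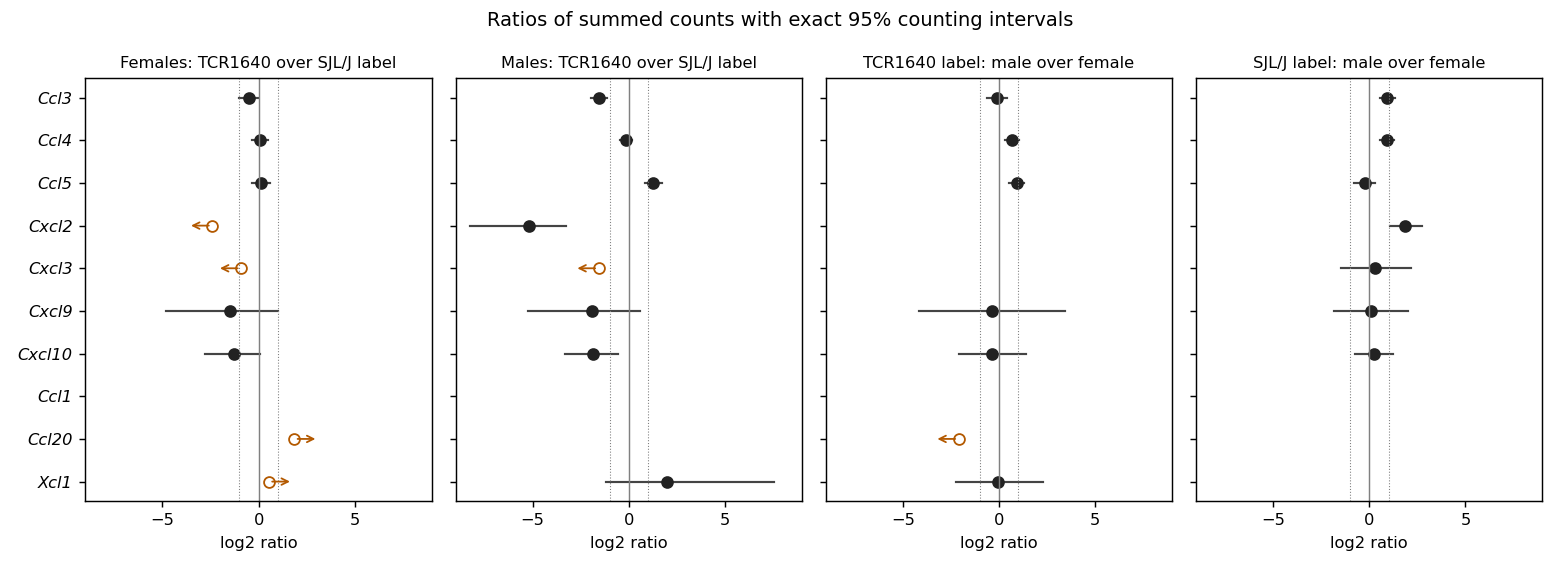
Log2 ratios of summed counts (horizontal axes) for each ligand gene in the 4 comparisons, with exact 95% counting intervals as bars. Open circles with arrows are ratios in which a group at 0 was set at a floor of 3 counts, and dotted lines mark 2-fold. Cxcl2 lies far left in both comparisons of labels, Ccl3 and Ccl5 lie on opposite sides in males, and genes without a symbol had too few counts for a ratio.

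Most neutrophil genes were also low under the TCR1640 label: of the 9 markers that passed the filter, 7 were apart as lower and 1, Ly6g, as higher in each sex. Of all genes 5.5% were apart as lower in females and 6.51% in males. Markers with few counts under the TCR1640 label, such as S100a8, passed the filter through the SJL/J label. The 10 neutrophil markers, all of which had counts and 1 of which is the receptor Cxcr2, summed to 20.7 and 15.9 CPM in females and males labelled TCR1640 and to 65.8 and 162 CPM under the SJL/J label. S100a8 and Elane, which define neutrophils and their precursors, had 0 counts under the TCR1640 label, and S100a9 had 5 and 3 there against 209 and 528. Ly6g, a surface marker of mature neutrophils, had 35 and 49 counts against 16 and 14, and Cxcr2 had 80 and 86 against 48 and 64. Over the 4 groups the male labelled SJL/J was highest for Cxcl2, for S100a9 and for the summed list. That group was also highest for the mast cell and basophil (110 CPM), platelet and megakaryocyte (335 CPM) and erythroid (67.3 CPM) lists. In bulk RNA, fewer cells of a type and less RNA per cell cannot be told apart, and the part of neutrophils in the Cxcl2 result was not tested. Mast cell and basophil markers summed to 16.9 and 19.0 CPM under the TCR1640 label and 92.0 and 110 under the SJL/J label. Of 11 monocyte and macrophage markers, 10 had counts, and the sum stayed between 129 and 140 CPM, of which Csf1r alone made up most. Adgre1 had at most 1 summed count in each group, C1qb had 0 everywhere. Lyz2 had 3 and 2 counts under the TCR1640 label against 38 and 61, while Cd68 had 38 and 63 against 37 and 30 and Fcgr1 had 9 and 1 against 0 and 0.

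Cxcl9 and Cxcl10, which interferon gamma induces and which attract T cells through CXCR3, had few counts. Cxcl10 (ENSMUSG00000034855, chromosome 5, 92346638 to 92348889) had 3 and 4 counts in females labelled TCR1640, 4 and 3 in males labelled TCR1640, 9 and 9 in females labelled SJL/J and 13 and 7 in males labelled SJL/J. Every column labelled SJL/J was above every column labelled TCR1640. The log2 ratio between labels was -1.85 in males (-3.34 to -0.55) and -1.26 in females (-2.76 to 0.07). Between sexes it was 0.24 (-0.75 to 1.24) under the SJL/J label and -0.36 (-2.10 to 1.38) under the TCR1640 label. Art3, which shares exon sequence with Cxcl10 on the other strand, had 36 and 9 summed counts in females and males labelled TCR1640 and 114 and 66 in those labelled SJL/J. Without the strand setting, reads of the 2 genes cannot be told apart in the shared sequence.

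Cxcl9 (ENSMUSG00000029417, chromosome 5, 92321347 to 92328079) had 0 and 2 counts in females labelled TCR1640, 0 and 2 in males labelled TCR1640, 2 and 4 in females labelled SJL/J and 4 and 2 in males labelled SJL/J. The summed counts, 2 against 6 in each sex, gave log2 ratios of -1.48 (-4.82 to 1.00) in females and -1.92 (-5.27 to 0.56) in males. A difference was not detectable at this depth.

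Ccl20, Xcl1 and Ccl1 were near the limit of detection. Ccl20 (ENSMUSG00000026166, chromosome 1, 83116766 to 83119167), the ligand of CCR6 and a product of Th17 cells, had 2 and 8 counts in females labelled TCR1640 and, in the other 6 columns, 0 except for 1 in a male column labelled SJL/J. At the floor of 3 counts the female labelled TCR1640 was 3.58-fold higher than the female labelled SJL/J. It was 4.26-fold higher than the male labelled TCR1640. The exact interval of the first ratio began at 2.41, and that of male over female ended at 0.349. Most counts of the female labelled TCR1640 lay in 1 of the 2 columns. Il17a, the Th17 cytokine, was lower under the TCR1640 label, with 516 against 1356 summed counts in females and 700 against 1614 in males.

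Xcl1 (ENSMUSG00000026573, chromosome 1, 164931644 to 164935527), or lymphotactin, made by CD8 T cells and natural killer cells, had 4 and 0 counts in females labelled TCR1640, 3 and 2 in males labelled TCR1640, 0 and 0 in females labelled SJL/J and 0 and 1 in males labelled SJL/J. The ratio between males, 5 against 1 summed counts, was 3.95 with a counting interval of 0.442 to 187. Gm20743, its partner on the other strand, had 22 summed counts in each sex labelled TCR1640 and 8 and 10 under the SJL/J label. CD8, cytotoxic and natural killer markers, 10 of 10 with counts, summed to 517 and 543 CPM under the TCR1640 label and 213 and 292 under the SJL/J label, with 1214 and 1699 counts of Cd8a against 193 and 217. Of the 8 that passed the filter, 5 in females and 3 in males were apart as higher, where 4.4% and 5.64% of all genes were. Cytotoxic genes were closer: Gzmb stood at 107 and 119 CPM against 95.2 and 120, and Prf1 at 61.7 and 85.0 against 45.9 and 85.9. Ncr1, which marks natural killer cells, had at most 2 summed counts in a group. The part of CD8 T cells in the Xcl1 and Ccl5 values was not tested. Ccl1 (ENSMUSG00000020702, chromosome 11, 82176657 to 82305690), the ligand of CCR8, had 1 count in 1 column labelled SJL/J and 0 in the other 7.

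The 4 comparisons were read against all genes, with a gene called apart at 2-fold or more if its interval also excludes equality. Between labels in females 9.9% of 17261 genes were apart, 4.4% higher and 5.5% lower under the TCR1640 label, and of the 5 ligand genes that passed the filter 1, Cxcl2, was lower. In males 12.1% were apart, 5.64% higher and 6.51% lower, and 3 ligand genes, Ccl3, Cxcl2 and Cxcl10, were lower and 1, Ccl5, was higher. Cxcl2 and Cxcl10 passed the filter only through their counts under the SJL/J label, so their direction between labels was tied to the filter. Between sexes under the SJL/J label 2.56% of genes were apart and 1.01% were higher in males, and Cxcl2 was the 1 ligand gene apart. Under the TCR1640 label 3.12% of genes were apart, 1.07% higher and 2.05% lower in males, and 0 of the 5 ligand genes were. The 2 columns of a group were apart by this rule for 1.03%, 1.1%, 1.11% and 1.12% of genes.

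By the interval alone, without the 2-fold limit, 3 of the 5 ligand genes (Ccl3, Ccl4 and Cxcl2) were higher in the male under the SJL/J label, where 22.2% of all genes differed, 10.2% higher and 12% lower. Under the TCR1640 label 2 of 5 (Ccl4 and Ccl5) were, where 26.1% differed, 11.9% higher and 14.2% lower. Between labels 2 of 5 (Ccl3 and Cxcl2) were lower in females, where 40.8% of genes differed, 21.3% higher and 19.5% lower. In males the same 4 were apart as by the 2-fold rule, where 46.1% differed, 23.1% in each direction. The median log2 sex ratio of the 5 was 0.90 under the SJL/J label, beside 0.00 over all genes. Under the TCR1640 label the 4 with a ratio had a median of 0.30, again beside 0.00. The median log2 ratio between labels was -0.52 in females, beside 0.02 over all genes, and -1.56 in males, beside 0.00. Cxcl2 and Cxcl10 passed the filter only through the SJL/J label, so these medians and the counts between labels were tied to the filter. Ccl3, Ccl4 and Ccl5 stood at -0.52, 0.07 and 0.12 in females and at -1.56, -0.14 and 1.28 in males.

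**Figure D3:**
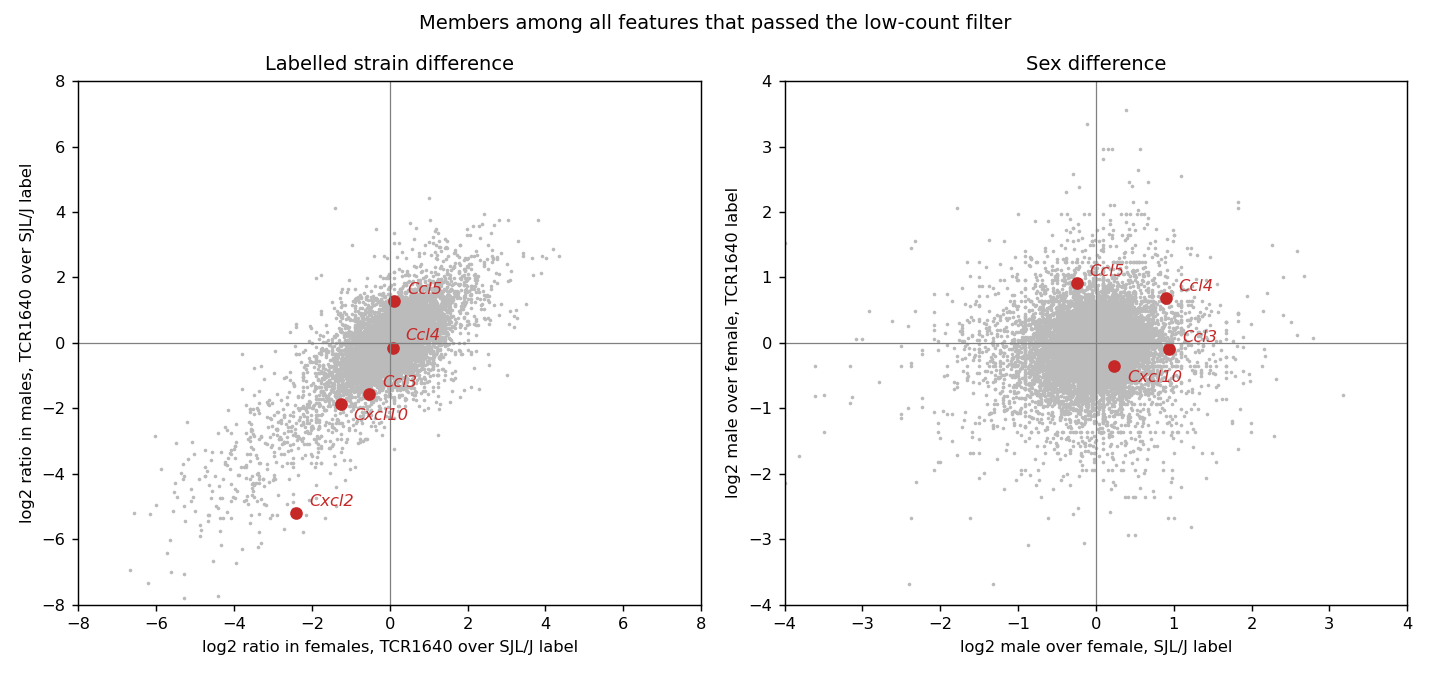
Log2 ratios of all genes that passed the low-count filter (grey) with the ligand genes in red; left, females (horizontal) against males (vertical) for the labels; right, SJL/J label (horizontal) against TCR1640 label (vertical) for male over female. Cxcl2, drawn at its bound in females, lies at the lower left, and Ccl4 is the ligand gene with a positive sex ratio under both labels.

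Averages over sex or label came from an edgeR model with both terms and no interaction, run across all genes with 2 summed samples against 2. Its error is the part of a difference that varies between the other factor's levels, with spread shared across genes, and not spread between mice. For labels, 26.5% of genes passed in edgeR, 13.4% higher and 13.1% lower, and of the 5 ligand genes 3 fell and 1 rose under the TCR1640 label. Of the 3, Cxcl2 and Cxcl10 passed the filter through the SJL/J label, so their direction was tied to the filter. Cxcl2 fell by 5.32 on the log2 scale (SE 0.69, edgeR adjusted p = 5.84e-13), lower in 2 of 2 sexes. Ccl3 fell by 1.09 (SE 0.21, edgeR adjusted p = 3.30e-06) and Cxcl10 fell by 1.55 (SE 0.54, edgeR adjusted p = 0.0195), each lower in 2 of 2 sexes. The female interval of Cxcl10 includes equality (-2.76 to 0.07). Ccl5 rose by 0.73 (SE 0.22, edgeR adjusted p = 0.00420), higher in 2 of 2 sexes, although its female interval includes equality. Ccl4 stood at -0.05 (SE 0.18, edgeR adjusted p = 0.883). DESeq2 kept Cxcl2 (adjusted p = 0.000757) and not Ccl3 (0.115), Ccl5 (0.503) or Cxcl10 (0.550). From the number 2 columns alone Ccl5 stood at 0.55 (edgeR adjusted p = 0.128).

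For sex, 1.1% of genes passed, 0.139% higher and 0.962% lower in males, and of the 5 ligand genes Ccl4 and Cxcl2 rose. Ccl4 rose by 0.79 (SE 0.18, edgeR adjusted p = 0.00381), higher in males under 2 of 2 labels. Cxcl2 rose by 1.90 (SE 0.53, edgeR adjusted p = 0.0341), a value set by the SJL/J label, since the other held 0 and 2 counts. Ccl3 stood at 0.50 (SE 0.21, edgeR adjusted p = 0.344), Ccl5 at 0.41 (adjusted p = 0.550) and Cxcl10 at 0.04 (adjusted p = 0.993). Neither call held under every setting. Ccl4 stood at 0.57 from the number 2 columns (adjusted p = 0.341) and 1.04 from the number 1 columns (adjusted p = 0.0784), and Cxcl2 stood at 1.86 (adjusted p = 0.120) when scaled on genes without overlap. In DESeq2 0 of the 5 passed (1 at an unadjusted p under 0.05, against 3 in edgeR).

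The other chemokine ligands numbered 30, of which 9 passed the filter. In the edgeR model 4 of the 9 fell under the TCR1640 label and 0 rose, where 13.1% of all genes fell and 13.4% rose, and DESeq2 called 2 (Pf4 and Ccl6). Those that fell were Pf4 and Ppbp, CXC ligands stored in platelets, and Ccl6 and Ccl9, CC ligands of myeloid cells. All of them had few counts under the TCR1640 label and passed the filter through the SJL/J label, so their direction was tied to the filter. Pf4 had 4 (female) and 7 (male) summed counts under the TCR1640 label and 436 and 682 under the SJL/J label. Ppbp had 0 and 0 against 159 and 300, at the floor of 3 counts 49.4-fold lower in females and 127-fold lower in males. The exact intervals ended at ratios of 0.0252 and 0.00978. Ccl6 had 2 and 2 against 35 and 41, and Ccl9 had 4 and 5 against 16 and 32. For sex, Pf4 and Ppbp rose in males in edgeR, by 0.72 (SE 0.19, adjusted p = 0.0244) and 1.00 (SE 0.24, adjusted p = 0.00812), the latter from the SJL/J label alone. For sex 1.1% of all genes passed. In DESeq2 neither passed (adjusted p = 0.999935 for each). Ccl25 (-1.19, -2.35 to -0.13, in females) and Ccl27a (1.25, 0.11 to 2.52, in males) were apart between labels in 1 sex each, and both overlap a gene on the other strand.

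Because of Pf4 and Ppbp, the make-up of the chemokine ligand counts differed between labels. Ccl3, Ccl4 and Ccl5 together took 55.1% of the counts of all 40 ligand genes in the female labelled TCR1640 (exact 95% interval 50.2 to 59.9) and 67.5% in the male (63.8 to 71.0). They took 23.7% (21.2 to 26.3) and 24.1% (22.0 to 26.2) in the female and male labelled SJL/J. Pf4 and Ppbp took 52.8% and 58.5% there, against 0.946% and 1.04% under the TCR1640 label. Counts here are not divided by gene length. Platelet and megakaryocyte markers, 8 of 8 with counts, summed to 97.4 and 92.0 CPM under the TCR1640 label and 234 and 335 CPM under the SJL/J label. Pf4 and Ppbp are themselves among these 8. In each sex 7 of the 8 were apart as lower under the TCR1640 label, beside 5.5% of all genes in females and 6.51% in males. Those with few counts there, such as Ppbp, passed the filter through the SJL/J label. Gp1ba, which made up most of the sum under the TCR1640 label, stood at 86.9 and 80.4 CPM against 72.0 and 62.0.

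**Figure D4:**
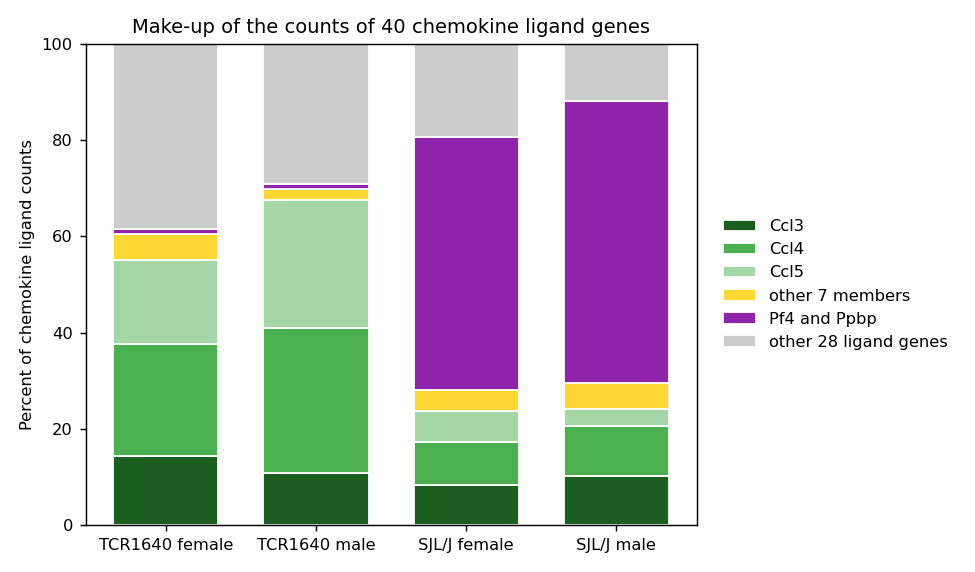
Share of the counts of 40 chemokine ligand genes (percent, vertical axis from 0) in the 4 groups, 1 bar each. Ccl3, Ccl4 and Ccl5 make up 55.1% and 67.5% under the TCR1640 label, and Pf4 with Ppbp make up 52.8% and 58.5% under the SJL/J label.

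Of the 7 receptors of these ligands, 6 passed the filter, and in edgeR 1 rose and 1 fell under the TCR1640 label, where 26.5% of all genes passed. Ccr1, a receptor of CCL3 and CCL5 on myeloid cells, had 36 and 22 summed counts in females and males labelled TCR1640 and 137 and 130 in those labelled SJL/J, and fell by 2.31 (SE 0.25, edgeR adjusted p = 4.11e-19). Cxcr3 had 18 and 32 against 14 and 6 and rose by 1.18 (SE 0.47, edgeR adjusted p = 0.0481). In females its log2 ratio was 0.46 with an interval that includes equality (-0.62 to 1.58), and DESeq2 kept Ccr1 (adjusted p = 2.59e-05) and not Cxcr3 (0.662). Cxcr2 had 80 and 86 counts against 48 and 64, and Ccr6 15 and 18 against 13 and 6. In males over females under the TCR1640 label Ccr1 was apart at -1.07. Ccr8 had at most 5 summed counts in a group. Xcr1 had 2514 to 3013 counts in each group, while Clec9a, which like Xcr1 marks a class of dendritic cells, had at most 1. For sex 0 of the 6 receptors passed in edgeR, 0 at an unadjusted p under 0.05, and 0 in DESeq2.

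Among 20 cytokines and regulators that act on chemokine genes, 19 passed the filter. Under the TCR1640 label 7 rose and 3 fell in edgeR, where 13.4% of all genes rose and 13.1% fell. DESeq2 called 6 of the 19, and 1344 of all genes. Il17a fell by 1.42 (SE 0.13, edgeR adjusted p = 8.02e-26), and Nfkb2, an NF-kappa B subunit, fell by 0.59. Other subunits did not follow: Rel rose by 0.48, and Rela (0.17), Relb (-0.12) and Nfkb1 (-0.28) did not pass. Il1b, a myeloid cytokine that overlaps Il1bos on the other strand, fell by 3.68 (SE 0.42, edgeR adjusted p = 9.13e-17), with 5 and 6 summed counts against 56 and 74 under the SJL/J label. It passed the filter through the SJL/J label, so its direction was tied to the filter. Those that rose included Irf1, an interferon-induced transcription factor, by 0.82 (SE 0.12, edgeR adjusted p = 1.30e-10), Zfp36, which promotes decay of cytokine mRNA, by 1.28, and Irf8, an interferon regulatory factor, by 0.41. Of the genes named here that rose or fell, DESeq2 kept all but Irf8 (adjusted p = 0.277) and Rel (adjusted p = 0.472). Irf1, Zfp36 and Nfkb2 each overlap a gene on the other strand. Irf1 was thus higher under the TCR1640 label. Cxcl10, which shares sequence with Art3, was lower there in males, but its interval in females includes equality (-2.76 to 0.07). DESeq2 did not keep Cxcl10 (adjusted p = 0.550). For sex 0 of the 19 passed in edgeR (1 at an unadjusted p under 0.05) and 0 in DESeq2.

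Ifng and Tnf are cytokines of activated T cells, and their sex ratios had the same signs as those of Ccl3 under each label. Under the TCR1640 label the intervals of Ccl3, Ifng and Tnf all included equality, so the sign there is not established. Both cytokines were chosen after their values were seen. Ifng had 107 and 113 summed counts in females and males labelled TCR1640 and 95 and 167 in those labelled SJL/J. Its male-to-female log2 ratio was 0.90 (0.53 to 1.28) under the SJL/J label and -0.28 (-0.67 to 0.12) under the TCR1640 label. For Tnf it was 0.73 (0.22 to 1.26) and -0.24 (-0.72 to 0.23). Prf1, the pore-forming protein of cytotoxic cells, stood at 61.7 and 85.0 CPM in females and males under the TCR1640 label and at 45.9 and 85.9 CPM under the SJL/J label.

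**Figure D5:**
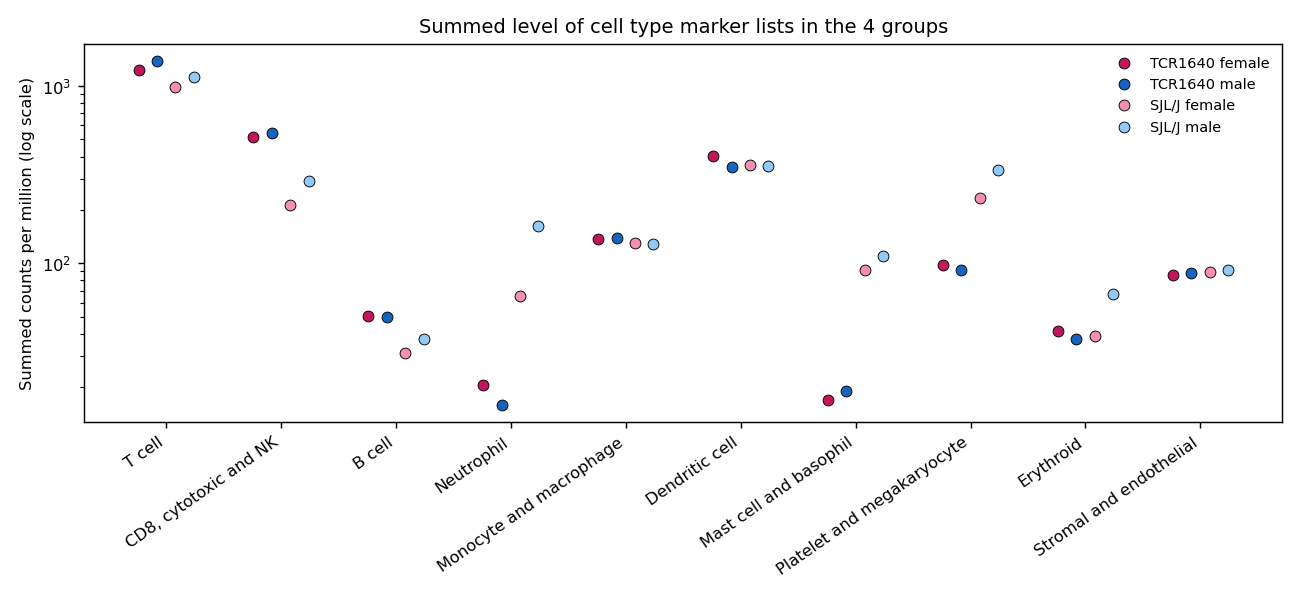
Summed CPM (log axis) of 10 lists of cell type markers in the 4 groups, 1 point per group. Neutrophil, mast cell and platelet lists are higher under the SJL/J label, and the CD8, cytotoxic and NK list is higher under the TCR1640 label.

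The genes nearest in pattern to the well counted ligands were found by the distance between log2 CPM values centred over the 4 groups, among 5961 genes without overlap. Nearest to Ccl3 were Mmp9, a metalloproteinase, at a distance of 0.137, and Syk, a kinase of B and myeloid cells, at 0.210. Nearest to Ccl4 were Gm2272 at 0.109 and Mrps24, a mitochondrial ribosomal protein, at 0.148. Nearest to Ccl5 were Castor1 at 0.200 and Frmpd1 at 0.241. With 4 groups and many genes, near neighbours arise readily, and this is a description only.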

How the data were processed

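RNA of stimulated mouse immune cells was sequenced as 8 mRNA libraries. The authors deposited raw read counts per Ensembl gene, not normalized. Per the labels' protocols, libraries were made from 500 ng of RNA with a stranded KAPA kit. Among tools, bcl2fastq 2.17, Bowtie2 and HTSeq, with build mm10, are listed per the submitters' processing notes. How HTSeq treated strand, and with which annotation, is not given in the sources used here. Groups and replicate numbers came from the sample titles, and no label says that libraries of 1 group are from different mice, so edgeR p-values measure only the spread between these samples. Symbols, positions and overlaps came from GENCODE M21 on GRCm38, which lacks 147 identifiers.

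The members and lists were chosen with earlier results of these data known. The 2 columns of a group were summed. Log2 ratios used TMM-scaled library sizes and exact 95% intervals. A group at 0 was set at 3 counts, and differences of 2 ratios had Wald intervals from counts. The additive model used edgeR 4.0.16 under R 4.3.3 (filterByExpr, quasi-likelihood F test, two-sided, Benjamini-Hochberg threshold 0.05 over 17261 genes, 1 residual degree of freedom). Each SE was the log2 change divided by root F. Alternatives were RLE, upper-quartile and non-overlap scaling, other filters, single columns, edgeR on 8 columns with and without a replicate block, and DESeq2 1.42.0. Scripts were tested on simulated data.

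By rule the text names all 10 members, their partners on the other strand, their receptors, the called other ligands and called regulators with the most counts (at most 6 of each), and up to 3 genes nearest in pattern to each member with at least 200 counts. Of these, 1 receptor and 1 regulator are counted in their lists and not reported here by name. Csf2, Ifng, Tnf, Il1b, Rel, Rela, Relb, Nfkb1, Prf1 and the single marker genes were chosen after their values were seen.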

Additional observations from a re-analysis of the deposited data

Results flagged for a closer look

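Ccl3 and Ccl5 had male-to-female ratios of opposite sign under the 2 labels. The ratio under the TCR1640 label minus that under the SJL/J label was -1.04 on the log2 scale for Ccl3 and 1.16 for Ccl5, each with a counting interval that excludes 0. The ratios came from 73 male and 61 female counts against 170 and 94 for Ccl3, and from 178 and 74 against 58 and 73 for Ccl5. Under the label with the smaller change, the interval of each single ratio included equality (-0.10 for Ccl3 and -0.25 for Ccl5). With 1 sample per group the difference was not tested over mice.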

How the results depend on the processing

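RLE factors changed no count of ligand genes called, and the alternative scalings shifted all log2 ratios of a comparison by -0.0433 to 0.0296. Over 252 values of single genes under the alternatives, 232 kept their side of the threshold or stayed within their counting interval. Cxcl10 for sex was -0.017 in DESeq2 against 0.04. The number of ligand genes apart changed as follows. Without a filter it was 2 in place of 1 between labels in females, 5 in place of 4 in males, and 1 in place of 0 for sex under the TCR1640 label. With a mean log2 CPM of at least 3 it was 0 in females, 2 in place of 4 in males, and 0 in place of 1 for sex under the SJL/J label. In edgeR on 8 columns, which compares libraries, it was 2 for sex under the TCR1640 label and 3 under the SJL/J label, and with a replicate block it was again 2 and 3. Same-numbered columns did not deviate together (r from -0.0152 to 0.0274 over 6 pairs of groups). Since columns of a group differ by little more than sampling noise, this cannot tell whether the numbers pair samples. The block changed no count of ligand genes against the same fit without it. The difference of sex ratios counted 2 genes, 1 with scaling on genes without overlap, 1 from either column alone and 0 in DESeq2. Between labels in males the count was 3 in edgeR and in DESeq2 on 8 columns, and 3 to 4 from single columns. From single columns the sex count under the TCR1640 label was 1 and 1.

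In the additive model for labels, 4 ligand genes became 1 in DESeq2 and 1 to 2 from single columns, where Cxcl2 and Cxcl10 did not pass the filter. For sex, 2 became 1 with upper-quartile factors, 1 with scaling on genes without overlap, 0 in DESeq2 and 0 from either column alone. Over all genes, the model called 190 for sex, 108 with upper-quartile factors, 55 with scaling on genes without overlap, 6 in DESeq2, 12 and 112 from single columns, and 2759 on 8 columns. For labels it called 4572, against 1344 in DESeq2, 2981 from the number 1 columns and 7821 on 8 columns. Counts of genes apart in the 5 comparisons of sums (labels in females and males, sex under TCR1640 and SJL/J, difference of sex ratios) were 1708, 2097, 539, 442 and 719. With a mean log2 CPM of at least 3 they were 497, 673, 63, 31 and 107, and in edgeR on 8 columns 5690, 6755, 2562, 1782 and 1612. DESeq2 on 8 columns gave 3122, 4073 and 912 for the first 3, and no filter gave 820 and 701 for sex. The cause was not tested where fewer counts do not show it. Depth limits Ccl1, Ccl20, Cxcl3, Cxcl9 and Xcl1 most, with at most 16 counts each over the 8 columns.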
